A study of Mus musculus with 12 samples.

Results

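The 33 genes described here encode the proteins that carry pyruvate into mitochondria, convert it to acetyl-CoA, run the citric acid cycle and move citrate and malate back to the cytosol. They were chosen by symbol, and each of the 33 has a row among the 46072 genes of the authors' deposited table. RNA sequencing was done on 3 cell types that were grown out of the marrow of mice of the C57BL/6J strain, aged 6 to 8 weeks. Osteoclasts, multinucleated cells that dissolve bone, received M-CSF at 30 ng/ml together with RANKL at 50 ng/ml. Immature dendritic cells, which present antigen, received GM-CSF at 20 ng/ml. Macrophages received M-CSF at 30 ng/ml without RANKL. Precursors of the macrophage and osteoclast cultures were first expanded for 5 days in M-CSF at 100 ng/ml, while the labels do not say plainly whether the dendritic cultures had such a step. Differentiation took 8 to 10 days. Cells with a single nucleus were taken out of the osteoclast cultures with Accutase. Each cell type had 4 libraries, 12 in all, and the labels tie the 3 cell types of an experiment to the same mouse.

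Pyruvate from glycolysis enters the mitochondrion through a carrier made of the proteins MPC1 and MPC2. The pyruvate dehydrogenase complex then turns it into acetyl-CoA, and this step is switched off by kinases and switched on by phosphatases. Citrate synthase joins acetyl-CoA to oxaloacetate, and the cycle returns oxaloacetate while yielding reduced carriers for the respiratory chain. Citrate can also leave the mitochondrion and be cleaved in the cytosol to supply acetyl-CoA for fatty acid and sterol synthesis. Osteoclasts are known for abundant mitochondria, whereas activated dendritic cells and macrophages are known for a shift toward glycolysis.

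Levels are given as normalised counts, that is, read counts divided by a size factor for the library, and an authors' mean is their average over 4 libraries. A gene was called when the adjusted p in the authors' deposited table was under 0.05. The standard error (SE) given beside a deposited log2 fold change is the one its p-value implies for a two-sided normal test, which is an inference. The authors' means summed to 24242540 in osteoclasts, 27731759 in dendritic cells and 25022062 in macrophages. Each mean is a sum of whole reads over size factors, so the reads of single libraries were recovered for 19 of the 33 genes in osteoclasts, 20 in dendritic cells and 21 in macrophages. These libraries are named a to d and are not tied to the labels' replicate numbers. For means from 1000 to 2500 the recovery assumes that the libraries of a cell type lie within a ratio of 2 of each other. Macrophage library d stood farthest from its group, as the most extreme of the 4 for 67.5% of 5316 genes and more than 2-fold from the others for 8.32% of them. Where a result below is said to rest on it, values are given with and without it.

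The markers of the labelled cells were mostly in place. All 6 osteoclast markers, Ctsk and Acp5 among them, were higher in osteoclasts than in macrophages, and 5 of 6 were higher than in dendritic cells. All 6 dendritic markers were higher in dendritic cells than in either other type, and 4 of 6 macrophage markers were lower in dendritic cells than in macrophages. All 6 macrophage markers were lower in osteoclasts than in macrophages. In osteoclasts against dendritic cells, 1 of them was higher and 3 were lower. Dendritic cells also had 4 of 6 osteoclast markers called higher than in macrophages, with a median log2 fold change of 3.19. Transcripts of other cells were also present, most of all in the dendritic cultures. The 8 neutrophil markers summed to a CPM (their share of the summed means, scaled to counts per 1000000) of 526 in dendritic cells, against 3.20 in osteoclasts and 3.68 in macrophages, and 7 of 8 were called higher in dendritic cells than in each of the others. The 7 mast cell and basophil markers summed to a CPM of 34.1 in dendritic cells, 0.566 in osteoclasts and 0.476 in macrophages. The 6 B and T cell markers summed to a CPM of 35.6 in macrophages, 11.7 in dendritic cells and 2.43 in osteoclasts. In macrophages 4 of these 6 had a mean of 0. The 6 proliferation markers summed to a CPM of 1082 in osteoclasts, 618 in dendritic cells and 804 in macrophages, with 2 called higher in osteoclasts than in dendritic cells and 1 than in macrophages. The part of any of these in the results below was not tested.

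The genes together took 0.398% of the summed means in osteoclasts, 0.363% in dendritic cells and 0.261% in macrophages. Of the 33, 20 had their highest mean in osteoclasts, 12 in dendritic cells and 1, the phosphatase gene Pdp1, in macrophages. The lowest mean was in macrophages for 23 genes. In bulk RNA, fewer expressing cells and less RNA per cell cannot be told apart.

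In osteoclasts against macrophages, 22 of the 33 genes were called higher, 1 lower and 10 neither way. Among all 17822 genes tested by the authors, 14.5% were called higher and 14.7% lower, 29.3% in all. Among the 7540 with a mean of at least 500 in the higher cell type, which is the range of most of these genes, the shares were 20.6% and 18.9%. The median log2 fold change was 0.55 for the 33 genes and -0.03 for all genes tested. The rises were moderate: 2 of the 22 reached 2-fold, Idh3a and Mdh2. Of all 17822 tested genes, 983 were called higher by at least 2-fold.

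In osteoclasts against dendritic cells, 11 genes were called higher, 7 lower and 15 neither way, with a median log2 fold change of 0.13. The background was 16.8% higher and 20.1% lower, 36.9% in all, among 21217 genes, with a median of -0.05, and 27% and 24.8% among genes with a mean of at least 500. The 7 lower genes were Aco1, Idh1, Pdk3, Pdk4, Mpc1, Slc25a1 and Acly. If the summed means are made equal, which raises every log2 ratio of osteoclasts to dendritic cells by 0.19, the counts become 18 higher and 6 lower. Of all 21217 tested genes, 5321 are then called higher and 3341 lower, in place of 3554 and 4275. The share of all called genes that are higher becomes 61.4% in place of 45.4%.

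In dendritic cells against macrophages, 20 genes were called higher, 2 lower and 11 neither way, with a median log2 fold change of 0.47. The background was 20.3% higher and 16.4% lower, 36.7% in all, among 20730 genes, with a median of 0.05, and 26.8% and 25.8% among genes with a mean of at least 500. The deposited fold changes of this pair run macrophages over dendritic cells, and their sign was turned here. Equal summed means shift each log2 ratio by -0.15 and give 15 genes higher and 2 lower. Of all 20730 tested genes, 3459 are then called higher and 4623 lower, in place of 4212 and 3396. The share of called genes that are higher becomes 42.8% in place of 55.4%. The 3 comparisons share cell types and are not independent of each other.

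**Figure D1:**
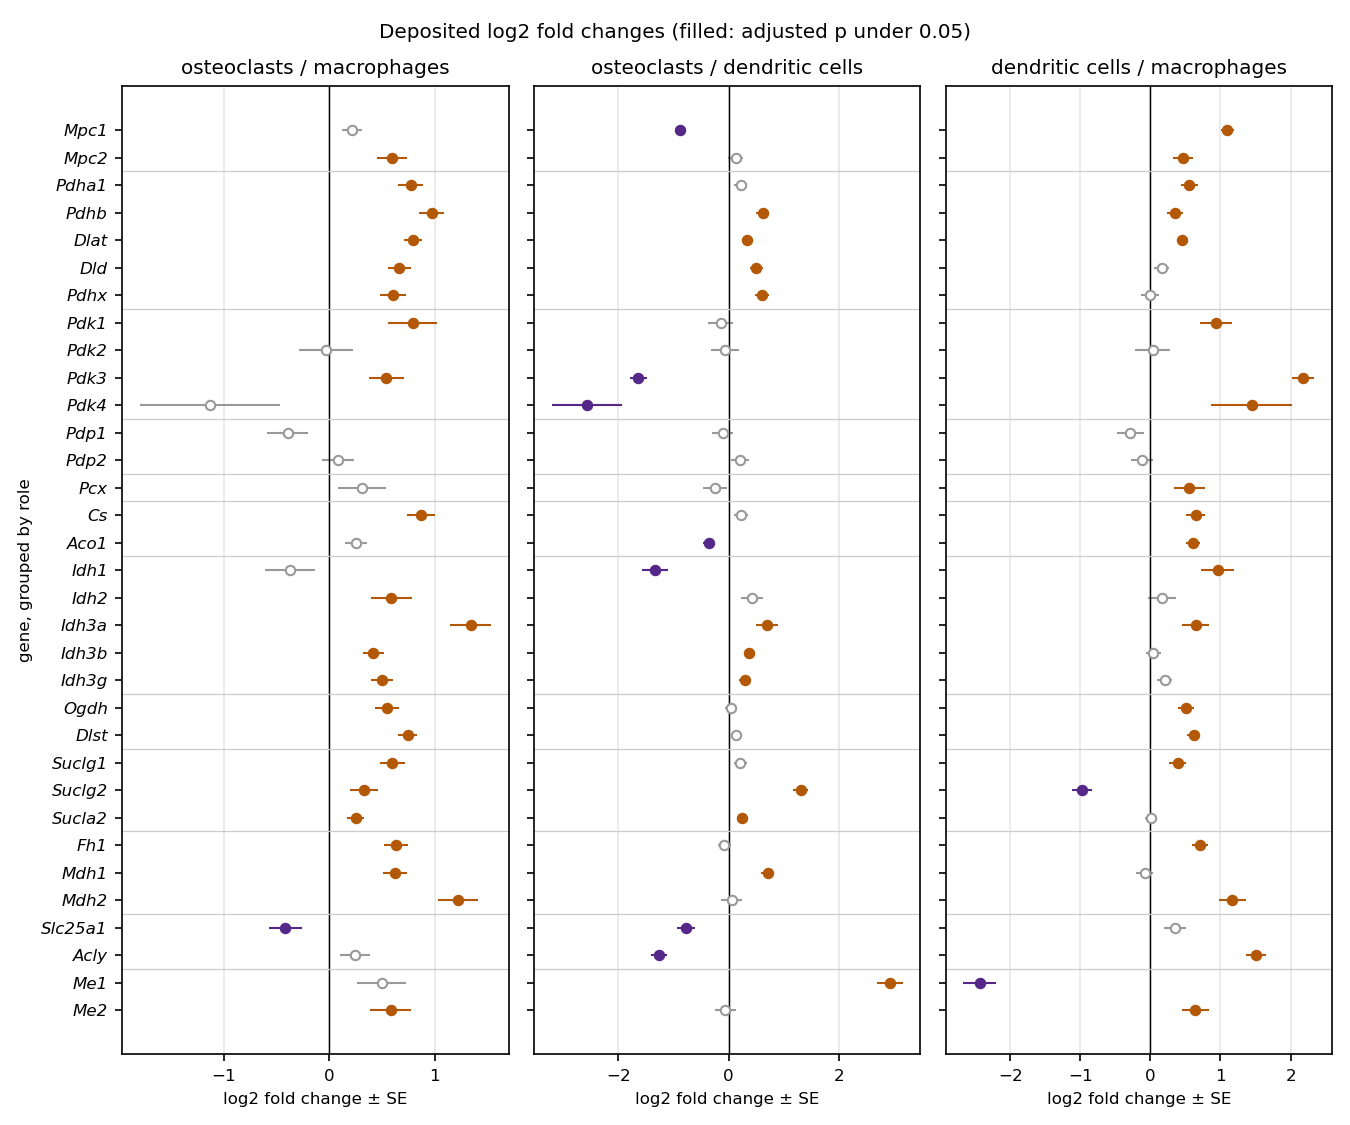
Deposited log2 fold change (x axis, log2 units, bars are the implied SE) of each of the 33 genes (rows, grouped by role) in osteoclasts over macrophages, osteoclasts over dendritic cells and dendritic cells over macrophages. Filled points have an adjusted p under 0.05 in the authors' table: 22 lie right of 0 and 1 left of it in the first panel, 11 and 7 in the second, 20 and 2 in the third.

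The pyruvate carrier genes differed in where they were highest. Mpc1 encodes a subunit of the carrier heterodimer in the inner mitochondrial membrane. Its normalised counts were 1129, 1102, 1206 and 1171 in osteoclast libraries a to d, 2337, 1996, 2217 and 1946 in dendritic libraries, and 949, 925, 982 and 1109 in macrophage libraries. All 4 dendritic libraries lay above every other library, while 1 macrophage library reached into the osteoclast range. The deposited log2 fold change was -0.88 ± 0.10 (SE) for osteoclasts against dendritic cells (adjusted p = 1.5e-18) and 1.10 ± 0.10 for dendritic cells against macrophages (adjusted p = 3.3e-28). For osteoclasts against macrophages it was 0.22 ± 0.10, which was not called (adjusted p = 0.0820). Mpc1 shares 480 bases, 23.05% of its annotated exon bases, with 4930506C21Rik on the opposite strand, a gene whose highest mean was 421, and the sources used here do not say whether the authors counted by strand.

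Mpc2 encodes the partner subunit. It had 541, 744, 535 and 649.6 normalised counts in osteoclasts, 580, 507, 548 and 621 in dendritic cells, and 449, 377, 434 and 368 in macrophages. Every osteoclast and dendritic library was above every macrophage library, and the osteoclast and dendritic ranges overlapped. In the authors' deposited table Mpc2 was called higher than in macrophages in osteoclasts (0.60 ± 0.14, adjusted p = 1.9e-04) and in dendritic cells (0.47 ± 0.14, adjusted p = 0.0034). Osteoclasts and dendritic cells were not told apart (0.13 ± 0.14, adjusted p = 0.52).

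All 5 genes of the pyruvate dehydrogenase complex were called higher in osteoclasts than in macrophages, with a median log2 fold change of 0.77. In osteoclasts against dendritic cells 4 of 5 were higher, all except Pdha1, and in dendritic cells against macrophages 3 of 5 were higher, Pdha1, Pdhb and Dlat. Pdha1 and Pdhb encode the alpha and beta chains of the decarboxylase. Dlat encodes the acetyl transferase core, Dld the dihydrolipoamide dehydrogenase that the complex shares with oxoglutarate dehydrogenase, and Pdhx the protein that binds Dld to the core.

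Pdhb (chromosome 14, 8165996 to 8173025, minus strand, GRCm38) had 1955, 2623, 2069 and 2111 normalised counts in osteoclasts, 1311, 1314, 1479 and 1584 in dendritic cells, and 1140.0, 1149, 1114 and 1049 in macrophages. The 3 sets of libraries did not overlap. Pdhb averaged 2189 ± 297 in osteoclasts, 1422 ± 134 in dendritic cells and 1113 ± 45.3 in macrophages (SD, n = 4 each). The authors' deposited table gave 0.97 ± 0.12 for osteoclasts against macrophages (adjusted p = 6.0e-15), 0.62 ± 0.12 for osteoclasts against dendritic cells (adjusted p = 7.5e-07) and 0.35 ± 0.12 for dendritic cells against macrophages (adjusted p = 0.0093).

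Dlat followed the same order, with 1773, 2061, 1889 and 1992 in osteoclasts, 1420, 1593, 1623 and 1486 in dendritic cells, and 1116, 1153, 1141 and 1044 in macrophages. Its libraries did not overlap between any 2 cell types either. The deposited log2 fold changes were 0.79 ± 0.08, 0.33 ± 0.08 and 0.46 ± 0.08 in osteoclasts against macrophages, osteoclasts against dendritic cells and dendritic cells against macrophages, and all 3 were called (adjusted p = 6.4e-19, 3.3e-04 and 4.9e-07).

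Pdhx had 850.4, 1034, 941 and 889 normalised counts in osteoclasts, 592, 546, 632 and 667 in dendritic cells, and 668, 647, 632 and 497 in macrophages. All 4 osteoclast libraries exceeded all 8 others, and the dendritic and macrophage ranges overlapped. The ratio of the osteoclast to the macrophage mean was 1.52 with macrophage library d, the lowest, and 1.43 without it. The authors' table gave 0.60 ± 0.12 against macrophages (adjusted p = 1.6e-05) and 0.61 ± 0.12 against dendritic cells (adjusted p = 7.2e-06) for osteoclasts. Between dendritic cells and macrophages the log2 fold change was 0.00 with an SE of 0.13 (adjusted p = 0.99). Dld had authors' means of 4455 in osteoclasts, 3133 in dendritic cells and 2804 in macrophages, and was called higher in osteoclasts than in macrophages (0.67 ± 0.11) and in dendritic cells (0.51 ± 0.11). Pdha1 had authors' means of 4684 in osteoclasts, 4024 in dendritic cells and 2735 in macrophages, and 603 of its exon bases, 16.15%, overlap Map3k15 on the opposite strand.

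**Figure D2:**
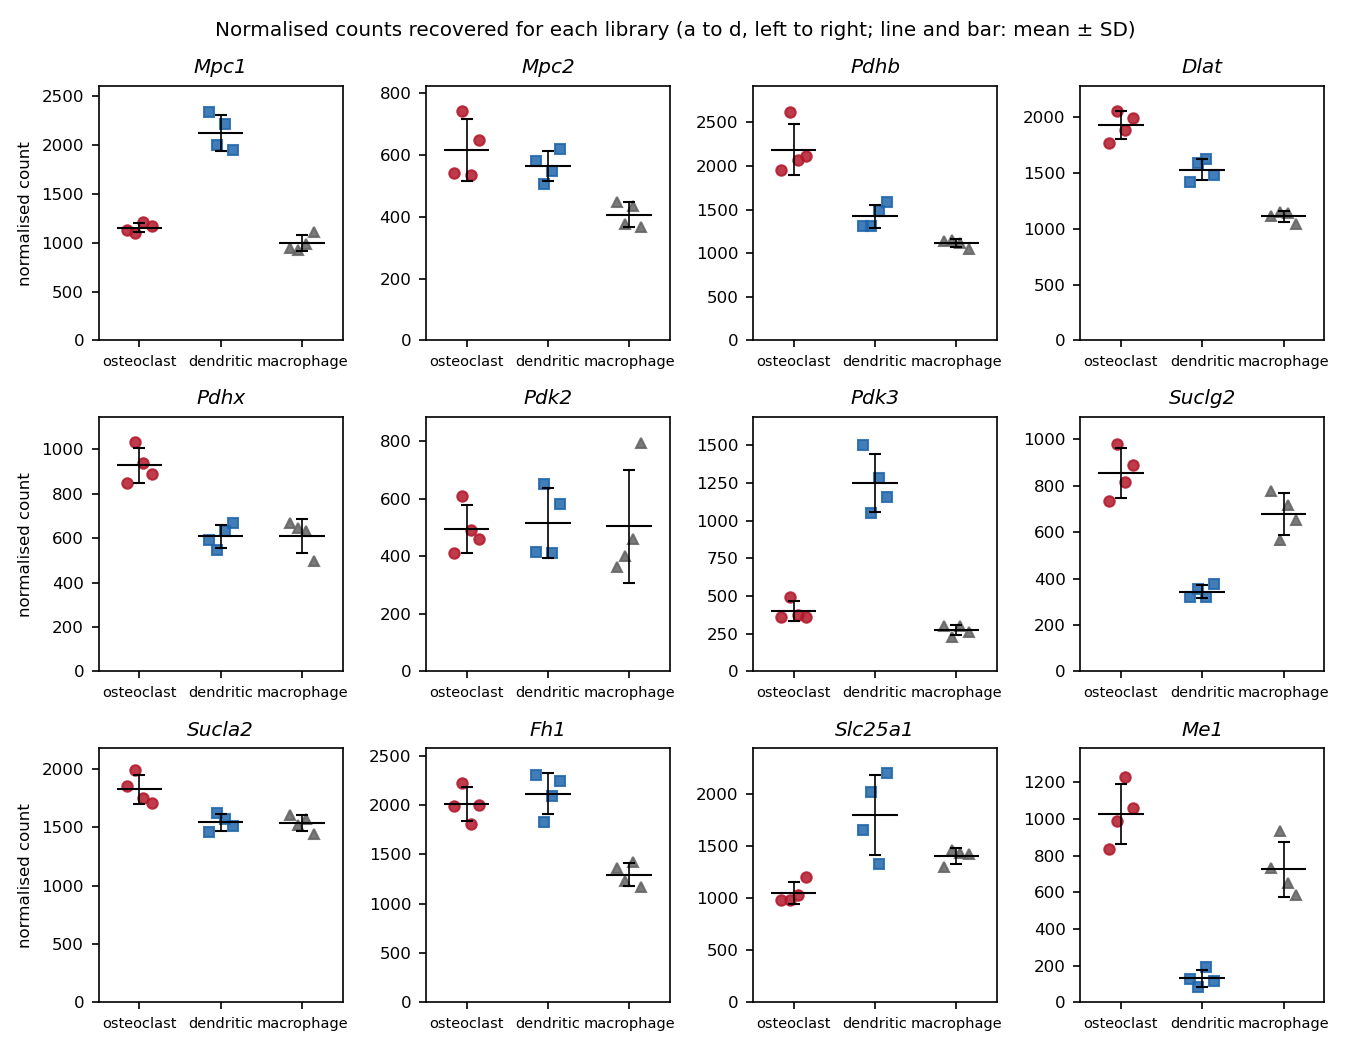
Normalised counts (y axis, linear, from 0) of 12 of the genes in the 4 recovered libraries of osteoclasts, dendritic cells and macrophages (x axis). Points are libraries a to d from left to right, the line is the mean and the bar the SD. Pdhb and Dlat fall into 3 separate ranges, Mpc1 and Pdk3 are high in dendritic cells, Suclg2 and Me1 are low in them, and the ranges of Pdk2 overlap.

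The kinases that phosphorylate and switch off pyruvate dehydrogenase were uneven. Pdk3 (chromosome X, 93764607 to 93832201, minus strand, GRCm38), which encodes a kinase isoform, had 361, 497, 375 and 364 normalised counts in osteoclasts. It had 1499, 1051, 1282 and 1160 in dendritic cells and 299, 231, 299 and 265 in macrophages. The 3 ranges did not overlap, and the dendritic libraries stood apart from the rest. The deposited log2 fold change was -1.64 ± 0.16 for osteoclasts against dendritic cells (adjusted p = 1.9e-23), a level 3.11-fold lower in osteoclasts. Dendritic cells were 4.53-fold above macrophages (2.18 ± 0.16, adjusted p = 3.5e-40), and osteoclasts 1.46-fold above macrophages (0.54 ± 0.16, adjusted p = 0.0049). This was the highest ratio of dendritic cells to macrophages among the 33 genes.

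Pdk1, a kinase known as a target of the hypoxia-inducible factor, had authors' means of 4267 in osteoclasts, 4726 in dendritic cells and 2450 in macrophages. It was called higher than in macrophages in both osteoclasts (0.79 ± 0.23, adjusted p = 0.0041) and dendritic cells (0.94 ± 0.23, adjusted p = 3.0e-04) in the authors' deposited table. Pdk2, a widely expressed isoform, was called in no comparison, with log2 fold changes from -0.06 to 0.03 and SEs of 0.26. Its macrophage libraries read 362, 402, 459 and 795, so the mean of 504 rested on library d and was 408 without it. The osteoclast and dendritic means were 494 and 516. Pdk4, a kinase known to be induced by fasting and lipid signals, was close to the detection limit, with 9 reads in all in osteoclasts, 64 in dendritic cells and 23 in macrophages.

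The reads of Pdk4 per library were 3, 3, 3 and 0 in osteoclasts, 28, 12, 15 and 9 in dendritic cells, and 4, 2, 6 and 11 in macrophages. A count of 0 allows up to 3 reads in that library, for counting error only. Pdk4 was called lower in osteoclasts than in dendritic cells (-2.58 ± 0.64, adjusted p = 2.6e-04), and those libraries did not overlap. Dendritic cells were called higher than macrophages (1.45 ± 0.58, adjusted p = 0.034) in the deposited table, but their libraries overlapped, with an exact two-sided permutation p of 0.0571 on log2(normalised count + 1) for 4 against 4 libraries, where 0.0286 is the smallest possible. That call by limma on the recovered libraries (1.46, adjusted p = 0.039) ended in 6 of 8 fits that left out 1 library, with adjusted p up to 0.125 without dendritic library a, and held without dendritic library d and without macrophage library d. The phosphatase genes Pdp1 and Pdp2, whose products switch pyruvate dehydrogenase back on, were called in no comparison by the authors. Pdp1 averaged 685 ± 153 in osteoclasts, 737 ± 146 in dendritic cells and 901 ± 132 in macrophages, and Pdp2 averaged 251 ± 11.1, 217 ± 44.2 and 236 ± 20.0 (SD, n = 4 each, in the same order).

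Counted per kb of annotated exon, which allows levels of different genes to be set side by side, Pdk1 made up 63.7% of the summed kinase level in osteoclasts, 48.1% in dendritic cells and 54.0% in macrophages. Pdk3 made up 18.1% in osteoclasts, 38.6% in dendritic cells and 18.3% in macrophages. Pdk2 made up 18.1%, 12.9% and 27.4% in the same order of cell types. These shares come from the authors' means and carry no replicate error.

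**Figure D3:**
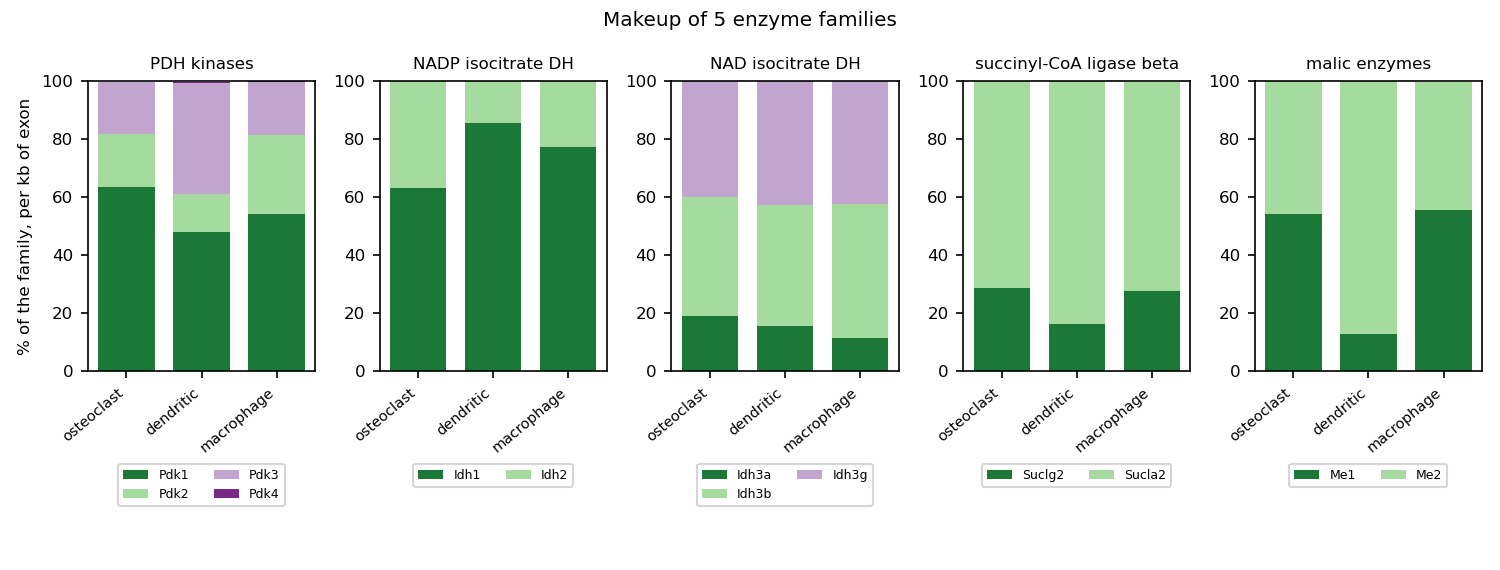
Share (y axis, percent of the summed authors' mean per kb of annotated exon) of each member in 5 enzyme families, in osteoclasts, dendritic cells and macrophages (x axis). DH stands for dehydrogenase and PDH for pyruvate dehydrogenase; Pdk3 reaches 38.6% of the kinases in dendritic cells, and Me1 falls to 12.7% of the malic enzymes there.

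Pcx encodes pyruvate carboxylase, which makes oxaloacetate from pyruvate to refill the cycle. It averaged 293 ± 68.6 normalised counts in osteoclasts, 348 ± 41.8 in dendritic cells and 236 ± 68.7 in macrophages (SD, n = 4 each). Its sole call was dendritic cells above macrophages (0.56 ± 0.22, adjusted p = 0.036) in the authors' deposited table, and it ended with equal summed means (0.41, adjusted p = 0.14) and with upper quartile scaling (0.48, adjusted p = 0.075). The dendritic libraries read 358, 393, 292 and 350.0, against 236, 183, 333 and 192 in macrophages, so 1 macrophage library lay inside the dendritic range. The exact two-sided permutation p was 0.0571, and limma on the recovered libraries gave 0.59 (adjusted p = 0.042). The limma call held without dendritic library c or macrophage library c and ended in the other 6 fits that left out 1 library, with adjusted p up to 0.115 without macrophage library b.

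Cs, encoding citrate synthase, which starts the cycle, had authors' means of 10527 in osteoclasts, 9007 in dendritic cells and 5749 in macrophages. It was called higher than in macrophages in osteoclasts (0.87 ± 0.13, adjusted p = 1.5e-09) and in dendritic cells (0.65 ± 0.13, adjusted p = 7.0e-06), with no call between osteoclasts and dendritic cells (0.22 ± 0.13). Aco1 encodes the cytosolic aconitase, which doubles as an iron-regulatory protein. Its authors' means were 2140 in osteoclasts, 2740.1 in dendritic cells and 1796 in macrophages. Aco1 was called higher in dendritic cells than in macrophages (0.61 ± 0.10, adjusted p = 5.3e-08) and lower in osteoclasts than in dendritic cells (-0.36 ± 0.10, adjusted p = 0.0026), and the last call ended with equal summed means (-0.16, adjusted p = 0.22).

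The genes of the NAD-linked isocitrate dehydrogenase, Idh3a, Idh3b and Idh3g, were called higher in osteoclasts than in both other types. The Idh3g call over dendritic cells ended with median ratio scaling (0.23, adjusted p = 0.077). This enzyme is a regulated step of the mitochondrial cycle, with Idh3a encoding its catalytic subunit and the others the partner subunits. Idh3a (chromosome 9, 54586334 to 54604661, plus strand, GRCm38) was at 3232 in osteoclasts, 1989 in dendritic cells and 1266 in macrophages by the authors' means. Its deposited rise over macrophages, 2.53-fold, was the largest of the 33 genes in that comparison (1.34 ± 0.20, adjusted p = 2.2e-10). Its ratio of means to macrophages was 2.55 with macrophage library d and 2.28 without it. The next gene, Mdh2, had a ratio of means of 2.35 with all libraries and no library values of its own. Its ratio without macrophage library d, and so the rank of Idh3a without that library, cannot be known here. Idh3a was also 1.62-fold above dendritic cells (0.69 ± 0.20, adjusted p = 0.0016).

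Idh3a reads could be recovered in dendritic cells and macrophages. They read 2026, 1516, 2330 and 2083 normalised counts in dendritic cells, against 1483, 1389.5, 1386 and 804 in macrophages. No dendritic library fell into the macrophage range, and macrophage library d was far below the other 3. The macrophage mean was 1266 with library d and 1419.5 without it. limma on the recovered libraries gave a log2 fold change of 0.67 for dendritic cells against macrophages (adjusted p = 0.019), and 0.47 without macrophage library d (adjusted p = 0.024). The limma call ended without dendritic library a (adjusted p = 0.051) and without dendritic library c (adjusted p = 0.061). Idh3b and Idh3g rose less in osteoclasts, by 0.42 ± 0.10 and 0.50 ± 0.11 against macrophages and 0.37 ± 0.10 and 0.29 ± 0.10 against dendritic cells, and neither was called between dendritic cells and macrophages. Per kb of exon, Idh3a made up 19.0% of the 3 subunit genes in osteoclasts, 15.4% in dendritic cells and 11.2% in macrophages.

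The NADP-linked isocitrate dehydrogenases differed from these. Idh1, which encodes the cytosolic and peroxisomal enzyme, a source of NADPH, had authors' means of 4462 in osteoclasts, 11365 in dendritic cells and 5793 in macrophages. It was called lower in osteoclasts than in dendritic cells (-1.33 ± 0.23, adjusted p = 8.9e-08) and higher in dendritic cells than in macrophages (0.96 ± 0.23, adjusted p = 1.9e-04), and was not called between osteoclasts and macrophages (-0.37 ± 0.23). Idh2, encoding the mitochondrial enzyme, had 2109, 2587, 2312 and 2651 normalised counts in osteoclasts, 1779, 1599, 1339.5 and 2461 in dendritic cells, and 1719.9, 1355, 1970.1 and 1347 in macrophages. All osteoclast libraries lay above all macrophage libraries, and 1 dendritic library reached the osteoclast range. The sole Idh2 call by the authors was osteoclasts above macrophages (0.59 ± 0.20, adjusted p = 0.012), and with equal summed means osteoclasts were also called above dendritic cells (0.62, adjusted p = 0.0054). Of the summed Idh1 and Idh2 level per kb, Idh1 held 63.3% in osteoclasts, 85.5% in dendritic cells and 77.2% in macrophages.

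Oxoglutarate dehydrogenase, the next enzyme of the cycle, is built like the pyruvate dehydrogenase complex. Its decarboxylase gene Ogdh had authors' means of 7555 in osteoclasts, 7326 in dendritic cells and 5161 in macrophages. Its succinyl transferase gene Dlst had authors' means of 5541 in osteoclasts, 5062 in dendritic cells and 3301 in macrophages. Both were called higher than in macrophages in osteoclasts (0.55 ± 0.12 and 0.75 ± 0.09) and in dendritic cells (0.50 ± 0.12 and 0.62 ± 0.09), and neither was called between osteoclasts and dendritic cells in the authors' deposited table.

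Succinyl-CoA ligase pairs the alpha chain from Suclg1 with a beta chain that uses GDP, from Suclg2, or ADP, from Sucla2. Suclg2 had 734, 982, 815 and 890.0 normalised counts in osteoclasts, 321, 354, 323 and 379 in dendritic cells, and 778, 568, 718 and 654 in macrophages. The dendritic libraries lay below all 8 others, while osteoclast and macrophage libraries overlapped. The deposited log2 fold change was 1.31 ± 0.14 for osteoclasts against dendritic cells (adjusted p = 6.2e-20) and -0.98 ± 0.14 for dendritic cells against macrophages (adjusted p = 2.0e-11). Suclg2 and the malic enzyme gene Me1 were the 2 genes called lower in dendritic cells than in macrophages. The deposited call of osteoclasts over macrophages (0.33 ± 0.14, adjusted p = 0.0497) lay at the threshold. It was not made by limma on the recovered libraries (0.33, adjusted p = 0.086), and the exact two-sided permutation p was 0.0571.

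Sucla2 changed less. It had 1848, 1988, 1752 and 1709 normalised counts in osteoclasts, 1459.5, 1623, 1572 and 1508 in dendritic cells, and 1603, 1522, 1568 and 1442 in macrophages. The osteoclast libraries were above all others, and the dendritic and macrophage ranges overlapped. Sucla2 was called 0.25 ± 0.08 higher in osteoclasts than in macrophages (adjusted p = 0.0092) and 0.24 ± 0.08 higher than in dendritic cells (adjusted p = 0.0087). The call over macrophages ended with upper quartile scaling (0.19, adjusted p = 0.054) and that over dendritic cells with median ratio scaling (0.17, adjusted p = 0.075). The limma call against macrophages on the recovered libraries (0.25, adjusted p = 0.041) ended whichever of the 8 libraries was left out, with adjusted p from 0.051 to 0.109. Against dendritic cells (0.24, adjusted p = 0.036) it ended in 5 of 8 such fits, with adjusted p up to 0.106, and held without osteoclast library d, dendritic library b or dendritic library c. Of the summed beta chain level per kb, Suclg2 held 28.8% in osteoclasts, 16.2% in dendritic cells and 27.7% in macrophages. Suclg1 averaged 2019 ± 181 in osteoclasts, 1745 ± 219 in dendritic cells and 1333 ± 94.4 in macrophages (SD, n = 4 each), and was called higher than in macrophages in both other types (0.60 ± 0.12 and 0.39 ± 0.12).

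Fh1, encoding fumarase, which hydrates fumarate to malate, had 1993, 2227, 1807 and 2003 normalised counts in osteoclasts, 2307, 1830.3, 2089.7 and 2246 in dendritic cells, and 1361, 1232, 1419.9 and 1169.5 in macrophages. Every osteoclast and dendritic library was above every macrophage library, and osteoclasts and dendritic cells overlapped. It was called higher than in macrophages in osteoclasts (0.63 ± 0.11, adjusted p = 4.7e-07) and dendritic cells (0.71 ± 0.11, adjusted p = 4.0e-09). Mdh2, encoding the mitochondrial malate dehydrogenase that regenerates oxaloacetate, had authors' means of 7537 in osteoclasts, 7241 in dendritic cells and 3205 in macrophages. Its deposited ratio was 2.34-fold in osteoclasts over macrophages (1.22 ± 0.19, adjusted p = 3.8e-09) and 2.24-fold in dendritic cells over macrophages (1.17 ± 0.19, adjusted p = 8.9e-09).

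Mdh1, the cytosolic partner of Mdh2 in the malate-aspartate shuttle, showed another order. Its authors' means were 6565 in osteoclasts, 4014 in dendritic cells and 4252 in macrophages. It was called higher in osteoclasts than in macrophages (0.62 ± 0.11, adjusted p = 9.0e-07) and in dendritic cells (0.71 ± 0.12, adjusted p = 6.9e-09), and dendritic cells and macrophages were not told apart (-0.08 ± 0.12). Per kb of exon Mdh1 ranked as the highest of the 33 genes in osteoclasts (2557), while Idh1 ranked highest in dendritic cells (4101) and macrophages (2090.4). Per kb of the longest transcript, Mdh2 (4693) and Cs (3505) stood above Mdh1 (3094) in osteoclasts, and Idh1 still ranked highest in the other 2 types.

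**Figure D4:**
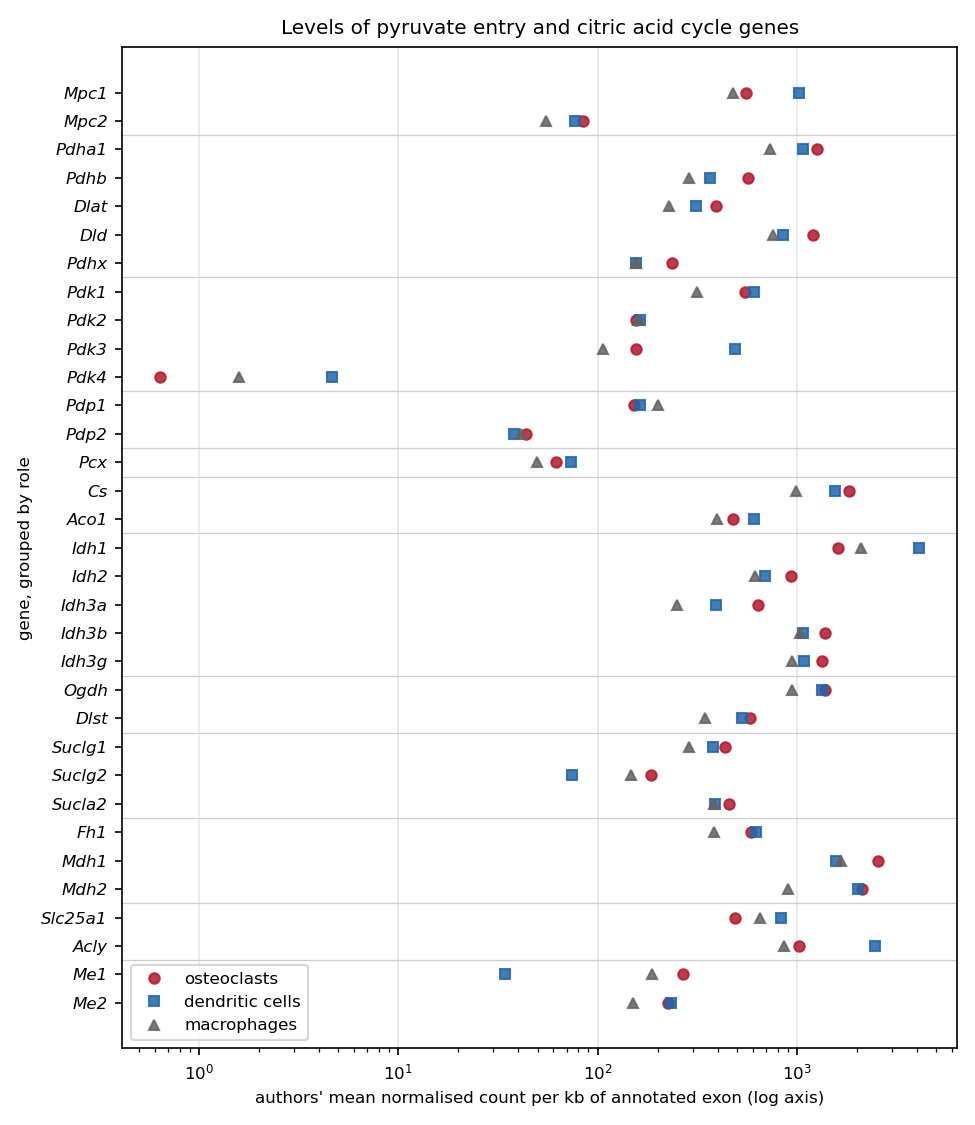
Authors' mean normalised count per kb of annotated exon (x axis, log scale) of each of the 33 genes (rows, grouped by role) in osteoclasts (circles), dendritic cells (squares) and macrophages (triangles). The levels ran from Pdk4, at 0.641 in osteoclasts, to Idh1, at 4101 in dendritic cells, and the macrophage triangle is leftmost for 23 genes.

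The genes for citrate export and cleavage were low in osteoclasts relative to dendritic cells. Slc25a1 encodes the mitochondrial citrate carrier. It had 987, 982, 1030.3 and 1211 normalised counts in osteoclasts, 1657, 2024, 1333 and 2203 in dendritic cells, and 1301, 1464, 1441 and 1431 in macrophages. All osteoclast libraries lay below all 8 others, and the dendritic libraries spread across the macrophage range. Slc25a1 was the 1 gene called lower in osteoclasts than in macrophages (-0.42 ± 0.16, adjusted p = 0.029), a call that ended with equal summed means (-0.37, adjusted p = 0.056). Against dendritic cells the deposited log2 fold change was -0.77 ± 0.16 (adjusted p = 5.0e-06). Dendritic cells against macrophages were not called (0.35 ± 0.16, adjusted p = 0.060), nor by limma on the recovered libraries (adjusted p = 0.104), which called them without dendritic library c, the lowest (adjusted p = 0.013).

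Acly encodes ATP citrate lyase, which cleaves the exported citrate to cytosolic acetyl-CoA. Its authors' means were 5411 in osteoclasts, 13017 in dendritic cells and 4567 in macrophages. Osteoclasts were 2.40-fold below dendritic cells (-1.26 ± 0.14, adjusted p = 7.9e-18), and dendritic cells 2.84-fold above macrophages (1.50 ± 0.14, adjusted p = 4.8e-25), per the authors' deposited table. Osteoclasts and macrophages were not told apart (0.24 ± 0.14, adjusted p = 0.20). The 5 genes Acly, Idh1, Aco1, Mpc1 and Pdk4 shared this pattern of calls, higher in dendritic cells than in both others with no call between osteoclasts and macrophages. With equal summed means 3 of the 5 left it: Aco1 lost the call against osteoclasts, Aco1 (0.30, adjusted p = 0.019) and Mpc1 (0.26, adjusted p = 0.028) were called higher in osteoclasts than in macrophages, and Pdk4 lost the call over macrophages (1.30, adjusted p = 0.060). Of the 5, the products of Acly, Idh1 and Aco1 work in the cytosol, while Mdh1 and Me1, also for cytosolic enzymes, had other patterns.

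Malic enzymes turn malate into pyruvate. Me1, which encodes the cytosolic enzyme, an NADPH source, showed the widest difference of the 33 genes. It had 837, 987, 1227 and 1059.9 normalised counts in osteoclasts, 130.3, 85.7, 194 and 116 in dendritic cells, and 730.2, 934, 651 and 588 in macrophages. The dendritic libraries were far below all 8 others, and osteoclast and macrophage libraries overlapped. The deposited ratio of osteoclasts to dendritic cells was 7.61-fold (2.93 ± 0.24, adjusted p = 6.6e-34), and dendritic cells were 5.40-fold below macrophages (-2.43 ± 0.24, adjusted p = 1.5e-23). Osteoclasts against macrophages were not called by the authors (0.50 ± 0.23, adjusted p = 0.088), and were called by limma on the recovered libraries (0.51, adjusted p = 0.039). That limma call held in 2 of 8 fits that left out 1 library, those without osteoclast library a (adjusted p = 0.028) and macrophage library b (adjusted p = 0.011), and otherwise ended with adjusted p up to 0.113.

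Me2 encodes the mitochondrial, NAD-linked malic enzyme. It had 1739, 1946, 1397 and 1457 normalised counts in osteoclasts, 1609, 1926, 1435 and 1832 in dendritic cells, and 1269.8, 1186, 1188 and 707 in macrophages. Each osteoclast and dendritic library exceeded each macrophage library, and macrophage library d was the lowest. The macrophage mean of 1088 became 1215 without it. The ratio of means to macrophages then went from 1.50 to 1.35 in osteoclasts and from 1.56 to 1.40 in dendritic cells. Me2 was called 0.58 ± 0.19 higher in osteoclasts (adjusted p = 0.012) and 0.64 ± 0.19 higher in dendritic cells (adjusted p = 0.0037) than in macrophages in the deposited table. Of the summed level of both malic enzymes per kb, Me1 held 54.2% in osteoclasts, 12.7% in dendritic cells and 55.7% in macrophages. Per kb of the longest transcript Me1 held 39.1%, 7.33% and 40.6% in the same order, so which malic enzyme was the larger in osteoclasts and macrophages depends on the length used.

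Across roles, the commonest pattern of calls was shared by 10 genes: higher in both osteoclasts and dendritic cells than in macrophages, with no call between the first 2. They were Mpc2, Pdha1, Pdk1, Cs, Ogdh, Dlst, Suclg1, Fh1, Mdh2 and Me2, each with a product known in the mitochondrion. With equal summed means 5 of the 10 left this pattern: Cs, Dlst, Suclg1, Pdha1 and Mpc2 were then called higher in osteoclasts than in dendritic cells (0.32 to 0.42), and Suclg1 (0.24, adjusted p = 0.100) and Mpc2 (0.32, adjusted p = 0.058) were no longer called in dendritic cells over macrophages. Another 6 genes, Dld, Pdhx, Idh3b, Idh3g, Sucla2 and Mdh1, were higher in osteoclasts than in both other types with no call between those. Pdhb, Dlat and Idh3a were called in all 3 comparisons, highest in osteoclasts and lowest in macrophages, though Pdhb lost its call in dendritic cells over macrophages with equal summed means (0.20, adjusted p = 0.17). Pdk2, Pdp1 and Pdp2, all regulators of pyruvate dehydrogenase, were called in none by the authors, and Pdp2 gained a call in osteoclasts over dendritic cells with equal summed means (0.40, adjusted p = 0.026). A missing call does not show that levels were alike: the 95% interval of the Pdk2 log2 fold change in osteoclasts against macrophages ran from -0.53 to 0.47.

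The recovered libraries give replicate ranges next to the authors' tests. In osteoclasts against macrophages, 11 of the 19 genes with libraries in both types did not overlap, where 27% of all 14781 genes with recovered libraries did not. The 11 were 10 higher genes and Slc25a1, which was lower. In osteoclasts against dendritic cells, 10 of 19 did not overlap, against 34% of 18130 genes. In dendritic cells against macrophages, 11 of 20 did not overlap, against 30.2% of 17642 genes. The shares cover recovered genes of every level, including genes of few reads, whose libraries separate less easily. Shares among genes of a similar level were not computed. For the higher recovered means, the assumed limit on the ratio of libraries also narrows their spread, which favours non-overlap. These counts therefore do not show whether the genes separate more often than others of their level. Each non-overlapping gene has the smallest exact two-sided permutation p that 4 against 4 libraries allow, 0.0286, so this test cannot rank them. Genes with means above 2500 were not recovered, so these counts leave out Cs, Ogdh, Mdh1, Mdh2 and Acly among others. Aco1 in osteoclasts (2140) and Pdk1 in macrophages (2450) lay below that limit and had no single solution either. On the recovered libraries limma called 11 genes higher and 1 lower in osteoclasts against macrophages, where 12.4% and 11.3% of the 14552 genes it tested were called. It called 7 higher and 4 lower in osteoclasts against dendritic cells, where the shares were 18.2% and 22.5% of 15259. In dendritic cells against macrophages it called 11 higher and 2 lower, against 19% and 13.8% of 15292. The limma shares were not matched for level either. Without macrophage library d the counts of higher genes against macrophages were 10 in osteoclasts and 10 in dendritic cells. Its call of Idh2 in osteoclasts over dendritic cells (0.46, adjusted p = 0.035), which the authors' table lacks, held without osteoclast library a or dendritic library d and ended without any of the other 6.

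More limma calls rested on single libraries. For osteoclasts over macrophages, Pdk3 lost its call without osteoclast library b or c or macrophage library b (adjusted p up to 0.066), and Me2 without osteoclast library a, b or d (up to 0.094). For dendritic cells over macrophages, Mpc2 lost its call without dendritic library a (0.051) and Suclg1 without dendritic library a or d or macrophage library a (up to 0.068). Calls also appeared when 1 library was left out: Mpc1 higher in osteoclasts than in macrophages without macrophage library d (0.031), Pdp1 lower there without osteoclast library a (0.020), and Suclg1 higher in osteoclasts than in dendritic cells without dendritic library d (0.045).

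Of 35 further genes around the cycle, 17 of the 34 tested were higher and 4 lower in osteoclasts than in macrophages. Among all genes tested by the authors, 14.5% were higher and 14.7% lower there. Of all 35, 12 were higher and 8 lower in osteoclasts than in dendritic cells, where the shares were 16.8% and 20.1%. In dendritic cells against macrophages 14 were higher and 6 lower, beside shares of 20.3% and 16.4%. Among genes with a mean of at least 500 the shares were 20.6% and 18.9%, 27% and 24.8%, and 26.8% and 25.8%, in the same order. The succinate dehydrogenase genes Sdha, Sdhb, Sdhc and Sdhd were all called higher in osteoclasts than in macrophages (0.62 ± 0.10, 0.47 ± 0.16, 0.51 ± 0.09 and 0.82 ± 0.09). Sdha and Sdhc were also higher in osteoclasts than in dendritic cells (0.32 ± 0.10 and 0.38 ± 0.09). Sdhd and the assembly factor gene Sdhaf2 had the smallest p among the higher genes in dendritic cells against macrophages (0.96 ± 0.09 and 0.80 ± 0.08).

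Acod1 encodes the enzyme that draws aconitate out of the cycle to make itaconate, an antimicrobial metabolite of activated myeloid cells. Its authors' means were 405 in osteoclasts, 8040.4 in dendritic cells and 786 in macrophages, and it was called lower in osteoclasts than in dendritic cells (-4.19 ± 0.35) and than in macrophages (-0.93 ± 0.36, adjusted p = 0.034). Osteoclast libraries a to d read 668, 444, 241 and 267 normalised counts, against 998, 952, 807 and 386 in macrophages, so these ranges overlapped. The macrophage mean of Acod1 was 786 with library d and 919 without it. Acss1, for the mitochondrial acetyl-CoA synthetase, had authors' means of 32.5 in osteoclasts, 1403 in dendritic cells and 429.8 in macrophages, and was called lower in osteoclasts than in both (-5.22 ± 0.41 and -3.57 ± 0.41). Ldhb, for a lactate dehydrogenase subunit, had the smallest p among the higher genes in osteoclasts against macrophages (2.21 ± 0.21, adjusted p = 2.4e-23). Nnt, for the mitochondrial transhydrogenase that makes NADPH, was lower than in macrophages in osteoclasts (-0.77 ± 0.17) and in dendritic cells (-0.88 ± 0.17). C57BL/6J mice are known to carry a deletion in Nnt, and the reads were not examined by exon here. Glud1, for glutamate dehydrogenase, was higher in osteoclasts than in dendritic cells (0.74 ± 0.12) and lower in dendritic cells than in macrophages (-0.44 ± 0.12).

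Promoter sequence was available from RefSeq (GRCm38.p6) for 30 of the 33 genes, as 250 bases before to 50 after each start. It was searched on both strands for AAGGTCA, the sequence recognised by estrogen-related receptors, which are known regulators of mitochondrial genes, and for CACGTG, the box bound by MYC, MITF and TFE factors. AAGGTCA occurred for 1 of the 30 genes (3.33%), Ogdh, against 5.38% of 27025 genes. CACGTG occurred for 5 (16.7%), Ogdh, Pcx, Pdk2, Pdp2 and Slc25a1, against 8.09%. A match is a run of letters and not a shown binding site. The promoters of Slc25a1, the gene lower in osteoclasts than in both other types, and of Ogdh, the gene with both motifs, are shown for their matches. Capitals mark CACGTG in both and, in Ogdh, TGACCTT, which is AAGGTCA on the other strand. The Slc25a1 window is chr16:17928170-17928469 on the minus strand and the Ogdh window chr11:6291920-6292219 on the plus strand, each written 5′ to 3′ in the direction of transcription.
Slc25a1: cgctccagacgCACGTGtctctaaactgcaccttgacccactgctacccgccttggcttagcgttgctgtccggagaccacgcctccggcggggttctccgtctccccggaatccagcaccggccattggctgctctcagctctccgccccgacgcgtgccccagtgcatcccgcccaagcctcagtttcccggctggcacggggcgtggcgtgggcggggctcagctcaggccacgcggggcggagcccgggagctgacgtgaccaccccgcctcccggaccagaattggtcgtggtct
Ogdh: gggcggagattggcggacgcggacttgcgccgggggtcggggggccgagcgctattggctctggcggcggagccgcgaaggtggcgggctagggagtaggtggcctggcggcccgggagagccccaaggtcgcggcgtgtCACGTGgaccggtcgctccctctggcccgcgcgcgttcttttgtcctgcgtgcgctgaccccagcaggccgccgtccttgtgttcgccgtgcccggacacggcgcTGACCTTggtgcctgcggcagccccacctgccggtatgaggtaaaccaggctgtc
Counted from the start of transcription, the first base of CACGTG lies at -239 in Slc25a1 and at -110 in this Ogdh window, and that of the AAGGTCA match at -5 in Ogdh, from where it runs past the start. The 2 genes with these promoters moved differently in the deposited table, Slc25a1 by -0.42 and Ogdh by 0.55 (log2) in osteoclasts against macrophages.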

How the data were processed

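RNA of 3 cell types, 4 libraries each, was sequenced as single reads of 50 bases, per the labels' protocols and the series' design text, from libraries of a kit that keeps the strand. The submitters' processing notes name DESeq2 2.13, Cufflinks 2.1.1, TopHat2, Bowtie2, bcl2fastq and the build GRCm38, with no roles, annotation or strand setting. The single deposited table holds, per the file headers, 1 row per gene and pair of cell types, with both means, the p-value before and after adjustment and a log2 fold change, all computed by the authors. The means are on the scale of normalised counts, deposited by the authors as averages over the libraries of a cell type, and 0 columns per sample were left unused.

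The members, gene lists and tests were chosen with earlier results of these data known. Symbols matched 45138 identifiers and 934 had none. The planned count tests could not use deposited counts per library, since the table has means only, so the authors' calls at adjusted p under 0.05 are the main result. The named genes are all 33 members and, of the 35 further pathway genes, in each comparison the 2 risen and the 2 fallen ones of smallest p, Sdha, Sdhb, Sdhc, Sdhd and Acod1. Of the further genes that this rule names, 2 are not reported here. Whole reads of single libraries were recovered from the 15 digits of each mean as the one combination of 4 whole numbers over 4 size factors that gives it. The size factors ran from 0.975 to 1.04. Up to a mean of 1000 this gave 1 solution for 100% of genes above 0 in osteoclasts, 99.98% in dendritic cells and 99.86% in macrophages. From 1000 to 2500 it gave 1 solution within the assumed ratio of 2 for 86.7%, 94.1% and 87.9%, in the same order. Both limits were chosen after seeing the data. Of the recovered genes with means from 500 to 1000, 95.4%, 91.4% and 87.4% kept within that ratio. On simulated reads 0 genes under 1000 were recovered wrongly. Between the limits 325 of 378, 359 of 377 and 358 of 377 were recovered, and 2, 0 and 2 of those were wrong, in the same order. The error for genes whose libraries break the assumed ratio was not tested separately. The 18 pairs of libraries within a cell type differed by more than counting noise, with median chi-squares per gene from 2.31 to 10.0 where noise alone gives 0.455, so none was a repeat. Intervals and limits on counts cover counting error only.

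The recovered libraries were tested with limma 3.58.1 in R 4.3.3 on log2(normalised count + 1), with a trend of variance on level and Benjamini-Hochberg adjustment over all recovered genes with at least 10 summed reads. Single genes were tested by an exact two-sided permutation test on the same scale. In a trial of osteoclasts against macrophages on simulated data, limma called 77% of 200 genes changed 2-fold among 14552, and 7 unchanged ones. Levels per kb use the union of exons in GENCODE M21 on GRCm38. Alternatives were stricter thresholds, other filters, 3 other scalings, a log2 ratio of means with pseudocount 1, transcript length, and leaving out each library. The 4 marrow extractions make the libraries separate samples per the labels.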

Additional observations from a re-analysis of the deposited data

Results flagged for a closer look

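In 60 groups of 4 recovered libraries of the genes, 4 had a library that stood apart by Dixon's criterion, where chance flags about 1 in 20 groups. Idh3a in macrophages had its lowest library at 804.3 normalised counts, library d, against 1386 to 1483 in the other 3. Me2 in macrophages had its lowest library at 706.5, again library d, against 1186 to 1269.8. Pdk3 in osteoclasts had its highest library at 496.6, library b, against 361 to 375. Pdk4 in osteoclasts had its lowest library at 0, library d, where the others each held 3 reads.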

How the results depend on the processing

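No paired analysis was possible because the table has no column per library and the recovered libraries carry no replicate number. The planned fits of count models were not run, since the table holds means and no counts; limma on the recovered libraries, chosen after seeing the data, took their place. Across the settings tried for single genes, 604 values kept direction and side of the threshold, 17 lost a call, 14 gained one and 17, all without a call, changed sign. The 604 include values that could not change. The log2 ratio of means reused the authors' adjusted p, so its 99 values could not cross the threshold. The settings with other filters kept the deposited fold changes, so direction was fixed there. At adjusted p under 0.01 no gene (0) stayed lower in osteoclasts than in macrophages. At least 2-fold calls were 2 higher and 0 lower in osteoclasts against macrophages, 2 and 4 in osteoclasts against dendritic cells, and 5 and 1 in dendritic cells against macrophages. Over all tested genes such calls were 983 and 1165 of 17822, 1514 and 2836 of 21217, and 2645 and 1535 of 20730, in the same order. With equal summed means, 0 genes were lower in osteoclasts than in macrophages and 18 were higher than in dendritic cells. Over all tested genes, such calls were 2342 of 17822 and 5321 of 21217. Signs changed with equal summed means for Pdk2 in osteoclasts against macrophages (0.016), for Fh1 (0.12), Pdk1 (0.048), Pdk2 (0.13), Pdp1 (0.088) and Me2 (0.14) in osteoclasts against dendritic cells, and for Idh3b (-0.10), Sucla2 (-0.14) and Pdk2 (-0.12) in dendritic cells against macrophages. They changed with upper quartile scaling for Idh3b (-0.029), Sucla2 (-0.066) and Pdk2 (-0.041) in dendritic cells against macrophages, and with median ratio scaling for Ogdh (-0.024) and Mdh2 (-0.011) in osteoclasts against dendritic cells and Pdhx (0.017) in dendritic cells against macrophages. These shifts follow from the scaling itself. With limma the signs of Pdk2 in osteoclasts against macrophages (0.027) and of Pdhx in dendritic cells against macrophages (0.0010) changed, and the cause was not tested.

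Leaving out 1 library, limma called 7 to 10 genes higher and 1 to 2 lower in osteoclasts against macrophages, 5 to 7 higher and 4 lower in osteoclasts against dendritic cells, and 6 to 10 higher and 2 lower in dendritic cells against macrophages, where the authors' calls of these genes were 11 and 1, 6 and 4, and 11 and 2. The count of 7 in osteoclasts against macrophages came without osteoclast library b, the 2 lower without osteoclast library a, and the 6 in dendritic cells against macrophages without dendritic library a. Genes whose libraries did not overlap numbered 11 to 14, 10 to 11 and 11 to 13. Leaving out a library can only keep or raise this count, since fewer libraries separate more easily. The share over all genes was not computed for it or for the limma counts with 1 library left out. With transcript length in place of exon length, Pdk1 held 66.8% of its family in osteoclasts, 52.5% in dendritic cells and 57.1% in macrophages, Idh1 59.0%, 83.1% and 73.8%, Suclg2 23.7%, 12.9% and 22.7%, and Me1 39.1%, 7.33% and 40.6%, in the same order. Pdk2 then held 17.9%, 13.2% and 27.1%, Pdk3 15.3%, 34.0% and 15.6%, and Idh3a 23.6%, 19.4% and 14.2%, in the same order. The median level per kb became 818, 771 and 491, where exon length gave 548, 529.6 and 345. AAGGTCA was in 0 promoters of the 250 bases before the start alone. Genes without recovered libraries have no library values here, so their replicate spread is known from the authors' p-values alone, and depth limits Pdk4.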
